A study of Mus musculus with 20 samples.

Results

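The 10 genes followed here are known from the epithelium that covers the ovary, and they were measured in whole ovaries of the Dummerstorf high-fertility mouse line FL1 and its unselected control line (ctrl). They were chosen by name, as 10 of the 54838 genes in the count tables: *Krt7*, *Krt8*, *Krt18*, *Krt19*, *Upk1b*, *Upk3b*, *Msln*, *Muc16*, *Cdh1* and *Lgr5*. This choice, like that of the gene lists below, was made with earlier results of these data known. All 10 were detected, but *Muc16* had only 183 counts over all libraries and passed the filter on low counts in 3 of the 5 comparisons. The 20 libraries came from females labelled as 77 days old, with 5 for each pairing of a line (ctrl or FL1) with a stage (estrus or diestrus), the stage being read from vaginal cytology. The line was taken from the sample titles, which the genotype labels match (WT for ctrl, FL1 for FL1), whereas the source label names FL1 for all 20 libraries. FL1 was bred by long-term selection on litter size and litter birth weight, ctrl descends from the same outbred founder population without selection, and no transgene or drug is named for either. Each line stands as 1 population, so that the effect of selection and of chance drift between lines cannot be told apart. The ovaries had been freed of fat, oviduct and tunica albuginea, the connective tissue sheet directly beneath the surface epithelium, and how much epithelium stayed on each ovary was not recorded in the sources used here. In such bulk tissue, fewer cells of a type and less RNA per cell cannot be told apart.

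The ovarian surface epithelium is a single layer of mesothelial cells that is torn at each ovulation and closes again over the wound. Simple epithelia build their intermediate filaments from pairs of a type II keratin (*Krt7*, *Krt8*) and a type I keratin (*Krt18*, *Krt19*). Uroplakins are membrane proteins first described in the bladder lining, and *Upk1b* and *Upk3b* are also made by mesothelium. *Msln* (mesothelin) and *Muc16* (the mucin that carries the CA125 antigen) are cell surface proteins that bind each other. *Cdh1* is E-cadherin, the adhesion molecule of epithelial junctions. *Lgr5* is a receptor for R-spondins, ligands that strengthen Wnt signalling, and marks stem and progenitor cells in several epithelia, the ovarian surface among them. Several of these genes are not private to the surface: E-cadherin is also made by oocytes, for example.

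The keratin genes *Krt8* and *Krt18* are neighbours on chromosome 15 of GRCm38. *Krt8* lies on the minus strand from 101996698 to 102004482 and *Krt18* on the plus strand from 102028180 to 102032027. They are transcribed away from each other, with 23697 bases and no annotated gene between them. *Upk3b* lies on chromosome 5 from 136038496 to 136046487, on the plus strand. The others are spread over the genome: *Krt7* on chromosome 15 (101411043 to 101430313), *Krt19* on 11 (100140810 to 100148665), *Upk1b* on 16 (38773184 to 38800328), *Msln* on 17 (25748613 to 25754378), *Muc16* on 9 (18495455 to 18674530), *Cdh1* on 8 (106603351 to 106670246) and *Lgr5* on 10 (115450311 to 115587780). The sequence before 3 of these starts is shown because *Krt8* and *Krt18* are neighbours that encode partners of 1 filament, and because *Upk3b* was called higher both between lines in estrus and between stages in FL1. Both *Upk3b* calls used the same FL1 estrus libraries, and neither held without FL1 estrus libraries 1 and 2. The sequences are from RefSeq (GRCm38.p6), 5′ to 3′ on the strand of the gene, cut where an annotated exon begins, with capitals for CACCTG, an E-box:
Krt8, chr15:102004483-102004592, minus strand: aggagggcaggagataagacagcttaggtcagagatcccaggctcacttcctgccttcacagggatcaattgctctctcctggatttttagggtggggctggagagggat
Krt18, chr15:102027966-102028179, plus strand: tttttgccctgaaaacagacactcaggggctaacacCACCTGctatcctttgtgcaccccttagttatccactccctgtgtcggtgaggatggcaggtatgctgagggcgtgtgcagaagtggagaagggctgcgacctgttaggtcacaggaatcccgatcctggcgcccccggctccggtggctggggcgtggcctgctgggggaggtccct
Upk3b, chr5:136038246-136038495, plus strand: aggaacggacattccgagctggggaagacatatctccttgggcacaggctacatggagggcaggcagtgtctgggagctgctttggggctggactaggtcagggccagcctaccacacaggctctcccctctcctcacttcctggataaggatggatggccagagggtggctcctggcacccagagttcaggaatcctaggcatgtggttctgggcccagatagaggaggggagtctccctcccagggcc
The motifs named here were searched on both strands of the 250 bases before each RefSeq start, for the 5 members with such a sequence (*Krt7*, *Krt8*, *Krt18*, *Upk3b* and *Muc16*). CACCTG was found in 3 of the 5, *Krt7*, *Krt8* and *Krt18*, against 17.2% of all 32851 promoters. The *Krt8* match lies in the stretch that is not printed. GGGCGG, a GC box held by 32.7% of promoters, was found 4 times in *Krt7* and in none of the other 4. TATAAA (12.4% of promoters) and TGANTCA, the AP-1 letters (6.75% of promoters), were in none of the 5. A match is a run of letters and not a bound site.

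Library totals ran from 5991223 to 10352718 counts, with 17484 to 19737 genes detected. Levels are given as normalized counts (CPM, counts scaled to library size with TMM factors). The reads come from the 3′ end of transcripts, so that the number of reads depends little on transcript length. Levels of different genes are compared on this scale, which is not an absolute count of transcripts. The library ctrl estrus 5 stood apart: its mean distance to the other libraries of its group was 100.9, against 77.6 to 82.6 for the rest of that group, and it had the fewest genes. Without it, the 3 comparisons that include it called as many members as with it. The listed luteal, stromal and oocyte genes were present in every library, as were the granulosa and theca genes apart from *Amh* (granulosa) at 0 to 0.57 CPM, with no count in 11 of the 20 libraries, and *Insl3* (theca) at 0 to 0.46 CPM, with none in 17. Of the 7 listed oviduct genes, 3 were low: *Ovgp1*, the oviductal glycoprotein, was between 0 and 1.82 CPM, *Pax8* between 0 and 1.89 and *Foxj1* between 0 and 2.35. *Wfdc2* was between 0.47 and 4.31 CPM, *Fam183b* between 1.65 and 8.35, *Epcam* between 3.41 and 18.4 and *Sox17* between 5.59 and 18.2. How much oviduct tissue the libraries held was not tested. The summed level of 4 fat genes was 16.8 to 44.7 CPM.

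On the CPM scale, the 10 genes spanned a wide range of median levels over the 20 libraries. *Lgr5* was strongest at 84.4 CPM, followed by *Upk3b* at 48.0 CPM. A middle group of close neighbours was formed by *Krt19* (12.8 CPM), *Krt18* (12.5 CPM), *Krt7* (10.7 CPM) and *Krt8* (9.64 CPM). *Cdh1* (8.25 CPM), *Upk1b* (7.82 CPM) and *Msln* (6.70 CPM) were next, and *Muc16* was weakest at 1.18 CPM, with 1 to 27 counts per library. The ranges of the 7 genes from *Krt19* to *Msln* over single libraries overlapped, so that their order was not fixed from animal to animal. *Upk1b* varied most among the well-counted members, by 19.2-fold between its lowest library (FL1 diestrus 2, 1.31 CPM) and its highest (ctrl diestrus 1, 25.1 CPM). *Krt8* varied least, by 3.30-fold. *Lgr5* ranked first in 3 of the 4 groups and stood just below *Upk3b* in FL1 estrus, where their means differed by less than the spread.

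**Figure D1:**
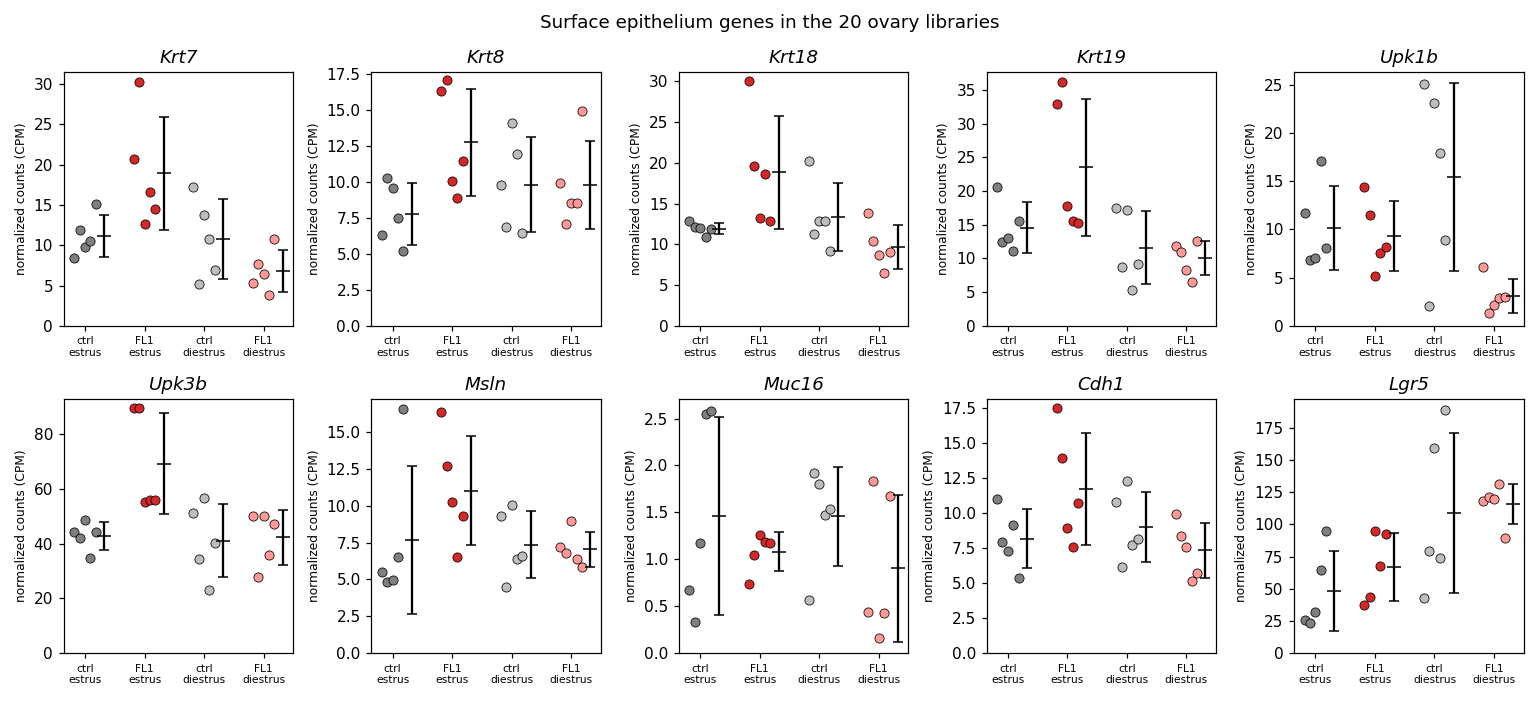
Normalized counts in CPM (y axis, linear, from 0) of the 10 genes in each of the 20 ovary libraries (points, replicate 1 to 5 from left to right) for ctrl and FL1 in estrus and diestrus (x axis), with the mean and s.d. (n = 5) as a bar beside the points. The 3 panels of *Krt7*, *Krt19* and *Upk3b* show FL1 estrus entirely above FL1 diestrus, and *Upk1b* in FL1 diestrus lies at 1.31 to 6.05 CPM.

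The stage comparison within FL1 asked how the selected line differs between the days around ovulation (estrus) and the luteal phase (diestrus). Of the 9 members tested, 6 passed the threshold, and 5 of these were stronger expressed in estrus: *Krt7*, *Krt18*, *Krt19*, *Upk1b* and *Upk3b*. *Lgr5* alone was weaker in estrus. Of all 13350 genes tested in this comparison 15.9% were called, 7.42% higher and 8.49% lower, so that changes were frequent in the FL1 ovary in general. The median log2 fold change of the 9 members was 0.71, against 0.01 over all genes tested. *Muc16* was not tested, at 1.08 ± 0.21 CPM in estrus and 0.90 ± 0.78 CPM in diestrus (s.d., n = 5 each).

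Among the keratins, *Krt7* changed most. It measured 20.7, 30.2, 12.6, 16.6 and 14.46 CPM in the 5 FL1 estrus libraries and 5.33, 7.71, 6.46, 3.83 and 10.7 CPM in the 5 FL1 diestrus libraries. Every estrus library lay above every diestrus library, a separation in this direction found for 5.58% of all genes tested. The mean was 18.9 ± 7.0 CPM in estrus and 6.81 ± 2.61 CPM in diestrus, a log2 fold change of 1.47 ± 0.28 (SE; edgeR adjusted p = 0.00161). *Krt19* measured 32.9, 36.2, 17.8, 15.5 and 15.2 CPM in FL1 estrus and 11.8, 11, 8.35, 6.53 and 12.6 CPM in FL1 diestrus. These groups did not overlap either, and the log2 fold change was 1.22 ± 0.27 (edgeR adjusted p = 0.00474). For *Krt18* the values were 30.0, 19.6, 13.2, 18.7 and 12.9 CPM in estrus and 13.8, 10.4, 8.67, 6.53 and 9.04 CPM in diestrus. Here the highest diestrus library exceeded the 2 lowest estrus libraries, and the log2 fold change was 0.95 ± 0.25 (edgeR adjusted p = 0.0145).

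*Krt8*, the type II partner of *Krt18*, was not called between the FL1 stages. Its estrus values were 16.3, 17.0, 10.1, 8.88 and 11.5 CPM and its diestrus values 9.94, 7.05, 8.51, 8.52 and 14.9 CPM, which overlap. The log2 fold change was 0.39 ± 0.24 (edgeR adjusted p = 0.289). Within single libraries, the ratio of *Krt18* to *Krt8* was 1.5 ± 0.44 in FL1 estrus and 1.05 ± 0.38 in FL1 diestrus, 1.65 ± 0.50 in ctrl estrus and 1.43 ± 0.46 in ctrl diestrus (s.d., n = 5 each). The 4 groups overlap in this ratio, which is given as a description without a test. For the sum of both type I keratins over the sum of both type II keratins, the group means were 1.33 in FL1 estrus, 1.23 in FL1 diestrus, 1.45 in ctrl estrus and 1.26 in ctrl diestrus.

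Both uroplakins were higher in FL1 estrus than in FL1 diestrus. *Upk3b* measured 89.6, 89.5, 55.3, 56.0 and 56.0 CPM in estrus and 50.3, 27.8, 50.1, 35.9 and 47.4 CPM in diestrus, without overlap. Its log2 fold change was 0.71 ± 0.18 (edgeR adjusted p = 0.0142). *Upk1b* measured 14.4, 11.5, 5.14, 7.55 and 8.14 CPM in estrus and 6.05, 1.31, 2.21, 2.84 and 3.01 CPM in diestrus. Only the lowest estrus library fell below the highest diestrus library. The log2 fold change of 1.59 ± 0.37 (edgeR adjusted p = 0.00716) was the largest of the members in this comparison.

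*Lgr5* ran the other way. FL1 estrus libraries held 37.6, 43.4, 94.6, 67.4 and 92.4 CPM and FL1 diestrus libraries 118.0, 121.2, 119.6, 131.2 and 89.5 CPM. The 4 highest diestrus libraries lay above all estrus libraries, whereas the remaining one lay below 2 of them. *Lgr5* fell by 0.78 ± 0.21 on the log2 scale (edgeR adjusted p = 0.0164). The call was lost when all 20 libraries were fitted together (adjusted p = 0.196), with 1 estimate of the spread for all groups. In the FL1 diestrus group *Lgr5* varied by ±15.6 CPM around 115.9 CPM, while ctrl diestrus varied by ±61.9 CPM around 108.9 CPM.

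The other 2 tested members had higher FL1 means in estrus but missed the threshold. *Msln* was at 11 ± 3.70 CPM in estrus and 7.05 ± 1.19 CPM in diestrus (log2 fold change 0.64 ± 0.24; edgeR adjusted p = 0.0746). *Cdh1* was at 11.7 ± 4.01 CPM in estrus and 7.33 ± 1.97 CPM in diestrus (log2 fold change 0.67 ± 0.25; edgeR adjusted p = 0.0838). The stages overlapped for both genes.

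**Figure D2:**
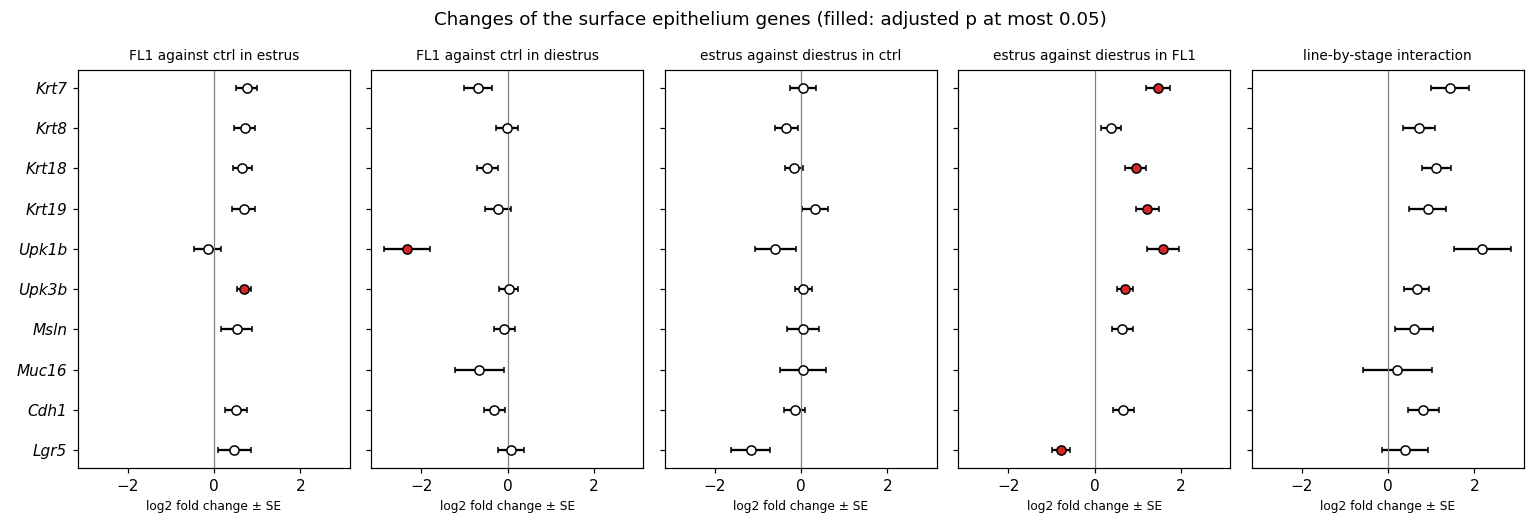
Log2 fold change with its standard error (x axis, points with bars) of the 10 genes (y axis) in the 4 comparisons of 5 against 5 libraries and for the interaction of line and stage (20 libraries), with filled points for an adjusted p of at most 0.05. In the plot, 6 points are filled for estrus against diestrus in FL1, 1 in each comparison of lines and none for the stages of ctrl or the interaction.

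Much of the height in FL1 estrus came from a pair of animals. The sum of the 4 keratins was 99.995 and 103.0 CPM in FL1 estrus 1 and 2, and 53.7 to 59.7 CPM in the other 3 libraries of the group. Over all members without *Lgr5* the sums were 238.5 and 231.7 CPM, against 134.6 to 139.4 CPM. The same 2 libraries had the lowest *Lgr5* of their group. They also had the highest summed granulosa markers of the group (3446 and 3450 CPM against 2207 to 2531 CPM), the highest summed oocyte markers (287.8 and 165.5 CPM against 114.0 to 132.4 CPM) and the lowest summed luteal markers (13959 and 17354 CPM against 20281 to 30319 CPM). In a fit without both libraries, chosen after seeing the values, 3 of the 6 calls remained: *Krt7* (log2 fold change 1.10, adjusted p = 0.0126), *Krt19* (0.70, adjusted p = 0.0431) and *Lgr5* (-0.44, adjusted p = 0.0375). *Krt18*, *Upk1b* and *Upk3b* were no longer called (adjusted p = 0.102, 0.0653 and 0.115), each with the same direction. With any single library left out, all 6 calls held.

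**Figure D3:**
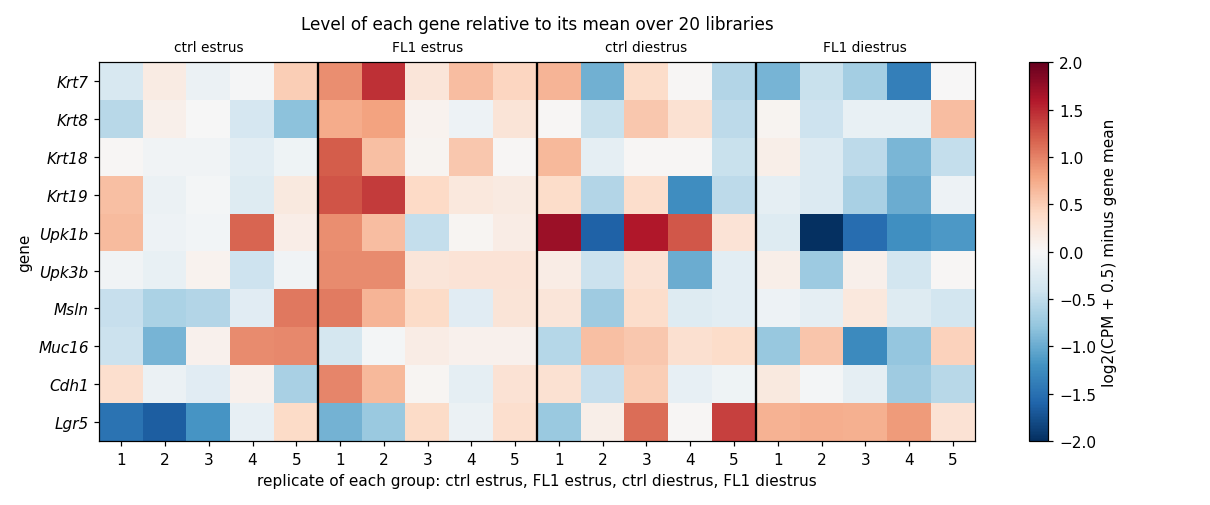
Heat map of log2(CPM + 0.5) minus the mean of each gene over all 20 libraries (colour, in log2 units, red above and blue below the mean), with the 10 genes as rows and the 5 replicates of each group as columns. FL1 estrus 1 and 2 are red for the 4 keratins, *Upk1b*, *Upk3b*, *Msln* and *Cdh1* and blue for *Lgr5*, while *Upk1b* is blue in all 5 FL1 diestrus columns.

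Marker genes of other cell types moved between the same FL1 groups, where 7.42% of all genes tested were called higher and 8.49% lower. All 4 stromal genes (*Dcn*, *Lum*, *Pdgfra*, *Col1a1*) were called higher in estrus, with a summed level of 1497 to 2193 CPM against 925 to 1259 CPM. Of 6 luteal genes 5 were called lower, with a sum of 13959 to 30319 CPM in estrus and 28512 to 37746 CPM in diestrus. Of 6 granulosa genes tested 2 were called lower, of 2 theca genes tested 1 was called lower, of 4 oocyte genes 1 was called higher, and none of 3 fat genes tested was called (edgeR; 1 had an unadjusted p of at most 0.05). Of the 3 oviduct-list genes tested 1 was called higher, *Epcam*, which surface epithelia of many kinds make. The part of these shifts in the results for the 10 members was not tested.

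In ctrl, the same stage comparison called none of the 10 members with edgeR, and DESeq2 and limma-voom called none as well. The background was 2.85% of 13334 genes called, and 1 member, *Lgr5*, had an unadjusted p of at most 0.05, against 15.4% of all genes. The median log2 fold change of the members was -0.05. *Krt7* was at 8.45, 11.9, 9.80, 10.5 and 15.2 CPM in ctrl estrus and at 17.2, 5.20, 13.8, 10.8 and 6.91 CPM in ctrl diestrus. These means of 11.2 and 10.8 CPM differed by less than the spread between animals. *Krt19* was at 14.6 ± 3.76 and 11.6 ± 5.46 CPM and *Upk3b* at 42.8 ± 5.14 and 41.1 ± 13.3 CPM, again within the spread. *Lgr5* measured 25.9, 23.0, 31.7, 64.8 and 95.1 CPM in ctrl estrus and 43.2, 79.3, 159.2, 74.0 and 188.8 CPM in ctrl diestrus. The 3 lowest estrus libraries were below all diestrus libraries, but the groups overlapped, and the log2 fold change of -1.17 ± 0.44 was not called (edgeR adjusted p = 0.204).

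That a stage change was called in FL1 and not in ctrl does not show that the lines differ in it, so the difference was tested as an interaction of line and stage in 1 model of the 20 libraries. No member was called, and 8 of all 14154 genes were (0.0565%). DESeq2 and limma-voom called no member either. At an unadjusted p of at most 0.05 there were 6 members (*Krt7*, *Krt18*, *Krt19*, *Upk1b*, *Upk3b* and *Cdh1*), against 11.7% of all genes. The estimate was positive for all 10, against 51.0% of all genes. A positive estimate means a stage change more towards estrus in FL1 than in ctrl. The median was 0.77 against 0.01 over all genes. The members were read from the same libraries, so that their signs are not independent of each other. Without FL1 estrus 1 and 2 all 10 stayed positive, but the median was 0.43, with *Krt18* at 0.78, *Krt8* at 0.40, *Krt19* at 0.38, *Upk3b* at 0.35 and *Msln* at 0.27. The estimates with the smallest p were *Krt18* at 1.12 ± 0.33 (edgeR adjusted p = 0.183), *Krt7* at 1.44 ± 0.44 (edgeR adjusted p = 0.185) and *Upk1b* at 2.19 ± 0.66 (edgeR adjusted p = 0.187). For *Lgr5* it was 0.39 ± 0.53 (edgeR adjusted p = 0.824), so that its change with stage could not be separated between the lines.

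The comparison of lines in estrus called 1 of 9 members tested, *Upk3b*, against a background of 2.33% of 13374 genes. *Upk3b* measured 89.6, 89.5, 55.3, 56.0 and 56.0 CPM in FL1 and 44.4, 42.0, 48.7, 34.7 and 44.3 CPM in ctrl. No FL1 library was as low as the highest ctrl library, a separation in this direction found for 2.54% of all genes, with means of 69.3 ± 18.5 and 42.8 ± 5.14 CPM. The log2 fold change was 0.69 ± 0.17 (edgeR adjusted p = 0.0468), and the exact permutation test of 5 against 5 libraries gave p = 0.00794, the smallest it can give (two-sided). The call was lost with limma-voom (adjusted p = 0.0576), in 1 fit of all 20 libraries (0.0663) and with a replicate block (0.0725), with log2 fold changes of 0.63 to 0.69. Leaving out 1 library at a time kept it in 2 of 10 fits (without ctrl estrus 5 or FL1 estrus 3), with adjusted p between 0.0438 and 0.130, and without both FL1 estrus 1 and 2 the log2 fold change was 0.37 (adjusted p = 0.310).

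None of the other 8 members tested was called between lines in estrus. Of the 9 estimates 8 were positive, against 49.1% of all genes, with a median log2 fold change of 0.65 against -0.01 over all genes. Without FL1 estrus 1 and 2 the median was 0.30, and *Krt7* (0.37), *Krt8* (0.38), *Krt18* (0.30), *Krt19* (0.14), *Msln* (0.19) and *Cdh1* (0.14) had smaller estimates, while that of *Lgr5* was larger (0.80). An unadjusted p of at most 0.05 was reached by 5 (the 4 keratins and *Upk3b*), against 15.9% of all genes. *Krt7* was at 18.9 ± 7.0 CPM in FL1 and 11.2 ± 2.56 CPM in ctrl (log2 fold change 0.75 ± 0.25; edgeR adjusted p = 0.145). *Krt8* was at 12.8 ± 3.71 and 7.74 ± 2.14 CPM (0.71 ± 0.25; edgeR adjusted p = 0.169). *Krt18* kept a narrow range in ctrl estrus, 10.8 to 12.9 CPM, with 12.9 to 30.0 CPM in FL1 (0.65 ± 0.22; edgeR adjusted p = 0.164). The single negative estimate was *Upk1b*, at 9.35 ± 3.63 CPM in FL1 and 10.1 ± 4.34 CPM in ctrl (-0.14 ± 0.31; edgeR adjusted p = 0.874). *Muc16* was too low to be tested. The summed oviduct list was 30.3 to 34.3 CPM in FL1 estrus and 19.9 to 29.3 CPM in ctrl estrus, without overlap. Within it *Pax8* was at 0.29 to 1.89 CPM in FL1 and 0 to 0.13 CPM in ctrl, *Foxj1* at 0.11 to 2.35 and 0 to 0.94 CPM, and *Epcam* at 15.6 ± 2.15 and 8.68 ± 3.25 CPM. *Ovgp1* was at 0 to 1.35 CPM in FL1 and 0 to 1.82 CPM in ctrl. *Sox17* was at 8.87 ± 2.76 and 10.8 ± 2.05 CPM, *Wfdc2* at 1.91 ± 0.58 and 1.99 ± 1.44 CPM and *Fam183b* at 2.87 ± 0.67 and 2.74 ± 1.35 CPM. Of the 4 oviduct-list genes tested between lines in estrus none was called, and 1 had an unadjusted p of at most 0.05 (edgeR). Their estimates were positive for 2, with a median log2 fold change of 0.0083. The part of these genes in the line results was not tested.

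The lines in diestrus differed in 1 of 10 members, *Upk1b*, against a background of 4.11% of 13259 genes. In ctrl diestrus *Upk1b* measured 25.1, 2.05, 23.1, 18 and 8.91 CPM and in FL1 diestrus 6.05, 1.31, 2.21, 2.84 and 3.01 CPM. Of the 5 ctrl libraries 4 lay above all FL1 libraries, and the ctrl library with 2.05 CPM lay among them. The means were 15.4 ± 9.74 CPM and 3.08 ± 1.79 CPM. *Upk1b* fell by 2.33 ± 0.54 on the log2 scale (edgeR adjusted p = 0.0241), and the exact permutation test gave p = 0.0397 (two-sided). With limma-voom, the log2 fold change was -1.87 and the call was lost (adjusted p = 0.214). Leaving out 1 library at a time kept the call in 5 of 10 fits, with adjusted p between 0.00231 and 0.0699.

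The other uroplakin did not follow. *Upk3b* was at 42.3 ± 10.0 CPM in FL1 diestrus and 41.1 ± 13.3 CPM in ctrl diestrus (log2 fold change 0.03 ± 0.22; edgeR adjusted p = 0.971). The ratio of *Upk1b* to *Upk3b* in single libraries was 0.04 to 0.12 in FL1 diestrus and 0.06 to 0.77 in ctrl diestrus, 0.09 to 0.16 in FL1 estrus and 0.14 to 0.49 in ctrl estrus. Its mean was lower and its range narrower in FL1 than in ctrl at both stages, a description given without a test. None of the other 8 members was called in diestrus (edgeR), and none of them had an unadjusted p of at most 0.05. *Krt7* was at 6.81 ± 2.61 CPM in FL1 and 10.8 ± 4.92 CPM in ctrl (-0.68 ± 0.33; edgeR adjusted p = 0.303), and *Krt8* had the same mean of 9.8 CPM in both lines. The median log2 fold change of the 10 members was -0.27, against -0.01 over all genes.

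**Figure D4:**
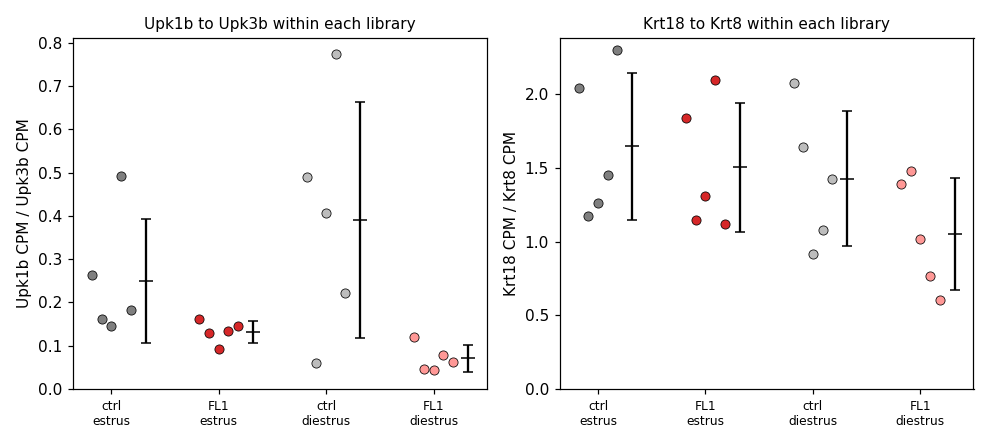
Ratio of *Upk1b* to *Upk3b* (left) and of *Krt18* to *Krt8* (right) in CPM (y axes, linear, from 0) within each of the 20 libraries (points) of the 4 groups (x axis), with the mean and s.d. (n = 5) as a bar. The *Upk1b* to *Upk3b* ratio reaches 0.77 in ctrl diestrus and at most 0.12 in FL1 diestrus, while the 4 groups overlap in the *Krt18* to *Krt8* ratio.

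Other genes known from mesothelium and ovarian surface were read from a list of 11, of which 10 were tested. In FL1, 5 were called higher in estrus and 1 lower, against 7.42% and 8.49% of all genes tested. *Aldh1a2*, a retinoic acid synthesizing enzyme, was at 144.1 ± 33.5 CPM in estrus and 37.9 ± 7.83 CPM in diestrus (log2 fold change 1.92 ± 0.17; edgeR adjusted p = 1.41e-06). *Pdpn* (podoplanin, a membrane glycoprotein of mesothelium) was at 73.2 ± 21.4 and 40.8 ± 3.02 CPM, *Wt1* (a transcription factor of mesothelium and gonad) at 70.5 ± 12.0 and 49.9 ± 9.33 CPM, *Cldn15* (a claudin of tight junctions) at 11.5 ± 2.30 and 6.47 ± 2.79 CPM and *Nkain4* at 4.85 ± 1.70 and 2.03 ± 0.48 CPM. *Aldh1a1*, a related enzyme, was lower, at 761.7 ± 105.3 against 1132 ± 70.1 CPM. Which cells made these RNAs, the higher ones and the lower one alike, was not tested. All 4 stromal marker genes were also called higher in this comparison. *Aldh1a2* and *Pdpn* were also called higher in estrus in ctrl, with log2 fold changes of 1.30 ± 0.25 and 0.91 ± 0.23 (edgeR adjusted p = 0.0150 and 0.0492). They were the only 2 of the 10 called there, against 2.85% of all genes. Between lines, none of the list was called in estrus (edgeR), and 4 had an unadjusted p of at most 0.05, against 15.9% of all genes. In diestrus 1 was called, against 4.11% of all genes. It was *Gpm6a*, a neuronal and mesothelial membrane glycoprotein, at 11.3 ± 1.43 CPM in FL1 and 20.3 ± 4.71 CPM in ctrl.

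Of 12 further keratin and uroplakin genes read from a list, only *Krt10* and *Krt20* had enough counts to be tested. *Krt10*, a keratin of the epidermis, was at 15.8 ± 3.81 CPM in FL1 estrus and 7.86 ± 2.23 CPM in ctrl estrus, without overlap (log2 fold change 0.99 ± 0.23; edgeR adjusted p = 0.0412). Of all genes tested in this comparison, 2.33% were called and 2.54% were separated in this direction. *Krt20* was between 0.86 and 10.9 CPM and was called in no comparison. Among the remaining 10, the highest value in any library was that of *Krt80*, at 3.75 CPM in ctrl diestrus 3.

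Genes of cell junctions and adhesion were read from a list of 14. In FL1, all 14 were tested between stages, 1 was called higher and 1 lower in estrus, a share close to the 15.9% of all genes called. *Epcam*, an epithelial adhesion molecule, was at 15.6 ± 2.15 CPM in estrus and 6.67 ± 2.15 CPM in diestrus, and *Dsp* (desmoplakin, of desmosomes) at 76.5 ± 7.83 and 110.1 ± 17.3 CPM. In ctrl none of the 13 tested was called between stages (edgeR). An unadjusted p of at most 0.05 was reached by 1, against 15.4% of all genes. *Cdh2*, N-cadherin, was called lower in FL1 diestrus than in ctrl diestrus, at 16.5 ± 0.88 against 26.0 ± 6.83 CPM. It was the only 1 of the 14 called there, against 4.11% of all genes.

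The receptor *Lgr5* belongs to a pathway of 8 further listed genes (receptors, R-spondins, the ubiquitin ligases that they restrain, and *Axin2*, a Wnt target), all tested. In FL1, the other receptors *Lgr4* and *Lgr6* were lower in estrus, as *Lgr5* was. *Lgr4* was at 63.5 ± 11.8 CPM in estrus and 97.2 ± 15.5 CPM in diestrus and *Lgr6* at 12.5 ± 3.67 and 21.6 ± 5.91 CPM. The ligand *Rspo3* was higher in estrus, at 6.13 ± 2.15 against 2.85 ± 0.52 CPM, and *Axin2* was higher at 20.9 ± 3.41 against 11.1 ± 2.37 CPM. The remaining 4 of the 8 were not called, where 15.9% of all genes were. In ctrl only *Axin2* of the 8 was called between stages, against 2.85% of all genes, at 20.3 ± 5.20 CPM in estrus and 8.89 ± 1.68 CPM in diestrus. An unadjusted p of at most 0.05 (edgeR) was reached by 3 of the 8, against 15.4% of all genes. The ctrl levels of *Lgr4* were 68.2 ± 17.4 and 112.5 ± 33.6 CPM (log2 fold change -0.72 ± 0.21; edgeR adjusted p = 0.0968). Those of *Lgr6* were 11.7 ± 3.16 and 22.5 ± 8.90 CPM (-0.94 ± 0.26; edgeR adjusted p = 0.0719), so that both had estimates of about the same size in ctrl as in FL1. None of the 8 was called between lines in either stage (edgeR; 0 in estrus and 1 in diestrus had an unadjusted p of at most 0.05).

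How the members moved together was described over the 20 libraries after the group means had been subtracted. Of the 45 pairs, 32 had a positive Pearson's r, with a median r of 0.37, whereas 49.9% of all pairs of tested genes were positive. The points share their libraries and depth, and no pair passed an adjusted p of 0.05. The closest pair was *Krt19* with *Upk3b*, with r = 0.78 (permutation p = 0.00127, adjusted over 45 pairs p = 0.0549) and Spearman's rho = 0.80 (permutation p = 0.00113, adjusted p = 0.0508). Without the 2 libraries farthest from the *Krt19* median, r was 0.74. Within single lines and stages, r was 0.90 in ctrl, 0.66 in FL1, 0.88 in estrus and 0.74 in diestrus. *Lgr5* was on the other side, with negative r to *Krt7*, *Krt8*, *Krt18*, *Krt19*, *Upk1b*, *Upk3b* and *Cdh1*, as low as -0.58 for *Krt18*, and positive r to *Msln* and *Muc16*.

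For each member, the 3 of 14154 genes with the highest r on the same scale were named as a description. Only 1 of these 30 places was held by another member: *Krt19* was the third of *Upk3b*, after *Rcan3* (r = 0.82) and *Lrrcc1* (r = 0.81). The nearest gene was *Kctd2* for *Krt7*, *Srbd1* for *Krt8*, *Snd1* for *Krt18*, *Rassf4* for *Krt19*, *Cenpo* for *Upk1b*, *Gnb1* for *Msln* and *Slc25a17* for *Muc16*, with r from 0.78 to 0.86. *Lgr5* had the closest company, *Ahnak* (r = 0.93), *Pcdh7* (r = 0.91) and *Hgsnat* (r = 0.89). *Cdh1* was nearest to *Grm2* (r = 0.87), *Wt1* (r = 0.84) and *Omt2b* (r = 0.83). *Krt8* ranked *Krt18* only at place 1538 (r = 0.35).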

How the data were processed

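Total RNA of 20 ovaries was turned into QuantSeq 3′ mRNA libraries and sequenced by the authors, who aligned the reads with STAR to GRCm38. The deposited values are raw counts per Ensembl gene, 1 table per library. The counting tool, its strand setting and any use of molecular identifiers are not given in the sources used here. The submitters' processing notes also name Cuffdiff. Of the members 4 overlap an opposite-strand gene, with at most 27 counts in all, and no near-identical copy of any member's last 300 bases was found (at least 50 shared words of 31 bases). Below that cut, *Krt7* shared 10 to 18 words with other genes, among them *Srpk2* (18 words) and *Nfatc3* (14 words). *Krt18* shared 20 with the pseudogene *Gm5200*. The part of shared words in the counts of *Krt7* and *Krt18* was not tested.

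From these counts, edgeR 4.0.16 was run in R 4.3.3 (TMM, filterByExpr with a minimum count of 10, quasi-likelihood test), on the 10 libraries of each comparison and on all 20 for the interaction. Benjamini-Hochberg adjusted p-values over all genes tested were called at 0.05 or below. SE is the log2 fold change divided by the root of F. Alternatives were DESeq2 1.42.0, limma 3.58.1 (voom), RLE scaling, other filters, 1 fit of all 20 libraries, a replicate block and leaving out each library; the test was checked on simulated data. Correlations used log2 CPM with a prior count of 2 and 100000 permutations within groups. Same-numbered libraries are different animals. P-values weigh each difference or correlation against the variation between the animals of these groups. Other listed genes were named where called or where their median reached 10 CPM, and otherwise given by counts. The members, gene lists and this naming rule were chosen with earlier results of these data known. Depth limits *Muc16* most: it reached 10 counts in 9 libraries. Of the 54838 gene identifiers, 29 were not in the annotation used here (GENCODE vM21) and stay unnamed.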

Additional observations from a re-analysis of the deposited data

Results flagged for a closer look

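*Msln* in the library ctrl estrus 5 was at 16.5 CPM, while the next highest library of that group was at 6.51 CPM; the gap made up 0.854 of the range of the group. It was the only one of 44 sets of 5 values that met Dixon's 95% criterion, which chance meets in about 1 of 20. The same library stood farthest from its group and had the highest *Adipoq* of all 20 libraries, at 12.7 CPM, and the lowest *Krt8*, at 5.17 CPM. Without it, the log2 fold change of *Msln* between FL1 and ctrl in estrus was 1.01 (edgeR adjusted p = 0.0551) in place of 0.53 (edgeR adjusted p = 0.516). The cause was not tested.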

How the results depend on the processing

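The 6 calls between FL1 stages held with RLE scaling, both other filters, DESeq2 and limma-voom. They became 5 in 1 fit of all 20 libraries, 7 with a replicate block (*Cdh1* added, adjusted p = 0.0384) and 3 without both FL1 estrus 1 and 2, an alternative chosen after seeing the data; leaving out 1 library gave 6 to 7. The 1 call between lines in estrus became 0 with limma-voom (*Upk3b* adjusted p = 0.0576), in 1 fit of all 20 (0.0663), with the replicate block (0.0725) and without both FL1 estrus 1 and 2, and 0 to 1 with 1 library left out. In diestrus the 1 call became 0 with limma-voom, and 0 to 1 with 1 library left out. No member was called between ctrl stages or in the interaction under any alternative, leaving out 1 library included. The numbers in the labels do not pair the animals, since same-numbered libraries are different animals. Deviations of same-numbered libraries correlated at -0.10 to 0.20, with 4 of 30 over 0.1. Those of replicate 1 were all positive, at 0.02 to 0.20. Whether libraries of the same number share a batch was not tested.

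Some estimates that were not called changed sign, the largest of them *Upk1b* between ctrl stages, at -0.60 with edgeR. With limma-voom these were *Krt8* (0.0075) and *Msln* (0.041) between lines in diestrus, and *Upk1b* (0.063), *Msln* (-0.22), *Muc16* (-0.39) and *Cdh1* (0.020) between ctrl stages. With the replicate block they were *Msln* (-0.071) and *Muc16* (-0.11) between ctrl stages. With 1 library left out, estimates ranged for *Upk1b* from -0.35 to 0.13 between lines in estrus, for *Msln* from -0.21 to 0.057, *Lgr5* from -0.12 to 0.38, *Upk3b* from -0.12 to 0.16 and *Krt8* from -0.21 to 0.15 between lines in diestrus, for *Muc16* from -0.28 to 0.28, *Krt7* from -0.14 to 0.28, *Msln* from -0.44 to 0.18, *Krt18* from -0.27 to 0.045 and *Upk3b* from -0.096 to 0.19 between ctrl stages, for *Muc16* from -0.038 to 0.67 in the interaction. The cause of these shifts was not tested.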
